A study of Mus musculus with 6 samples.

Results

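The Celf2 and Celf4 loci were examined in 6 CLIP-seq libraries of mouse cerebral cortex taken on postnatal day 1. CLIP-seq crosslinks proteins to RNA with ultraviolet light, pulls down 1 protein with an antibody and sequences the RNA fragments attached to it. The members were the intervals of the deposited lists of significant clusters whose midpoint fell in either locus, with repeated lines of 1 position and strand counted once as a distinct interval. In the mm9 build the Celf2 locus was the minus strand of chromosome 2 from 6.46 to 7.05 Mb (590 kb), and the Celf4 locus was the minus strand of chromosome 18 from 25.63 to 25.92 Mb (290 kb). Summed over libraries, 27557 of 962410 distinct intervals were members, of which 26113 lay in Celf2 and 1444 in Celf4. The loci were chosen by how many sites they held in these same lists, above all the Celf2 window from 6.7 to 6.8 Mb, so their levels and comparisons are given as descriptions.

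All mice were of BL6/129Sv background. FLAG antibody was used in cortex that carried Rosa-PTBP1, PTBP2 loxp/loxp and Emx1-Cre (FLAG loxP), in cortex with Rosa-PTBP1 and Emx1-cre (FLAG Rosa) and in wild-type cortex (FLAG WT 1 and FLAG WT 2). PTBP2 antibody was used in cortex with Rosa-PTBP1 and Emx1-cre (PTBP2 Rosa) and in wild-type cortex (PTBP2 WT). Rosa-PTBP1 is a transgene for FLAG-tagged PTBP1, and Emx1 drives the recombinase in the dorsal forebrain lineage that gives rise to cortical excitatory neurons, so other cells of the cortex keep their PTBP2. With no FLAG-PTBP1 in wild-type cortex, FLAG WT 1 and 2 show what the procedure recovers without the tagged protein. FLAG Rosa and FLAG WT differ by transgene and recombinase together. Each group held 1 library, apart from the 2 of FLAG WT, so no test between groups was run and the 95% intervals below cover counting error only. Intervals that overlap in 1 site are not independent, which makes these intervals too narrow. Loss of PTBP2 from the loxP cortex and the cell types of the cortex were not measured by these lists, which name no genes.

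PTBP1 and PTBP2 are related proteins that bind pyrimidine-rich stretches of RNA, often in introns, and repress or promote the inclusion of nearby exons. PTBP1 is found in progenitors and non-neuronal cells, while PTBP2 is the form of differentiating neurons. CELF2 and CELF4 belong to a second family of RNA-binding proteins, which regulates splicing, mRNA stability and translation, and CELF4 is known mainly from neurons. Binding of a PTB protein along the Celf2 or Celf4 pre-mRNA is thus contact of 1 kind of splicing regulator with the transcript of another. No mm9 gene model was used, so no interval below is placed in an exon, an intron or an untranslated region.

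Depth differed widely between libraries. FLAG loxP held 265953 distinct intervals, FLAG Rosa 351602, PTBP2 Rosa 74416, PTBP2 WT 155447, FLAG WT 1 88327 and FLAG WT 2 26665. Some chromosomes were nearly empty in single libraries, 6 of them (chromosomes 4 to 9) in PTBP2 Rosa, and shares are therefore also given over the 11 chromosomes filled in every library, which include chromosomes 2 and 18. FLAG loxP, FLAG Rosa and FLAG WT 2 came from 1 sequencing run, WA047, and the other 3 libraries from runs XA041 and XB028. FLAG-PTBP1 and PTBP2 libraries therefore shared no run, and the protein bound cannot be told apart from the run. Both FLAG-PTBP1 libraries were also deeper than both PTBP2 libraries.

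Celf2 held a large share of the intervals listed for both proteins. It held 7206 distinct intervals in FLAG loxP, 11394 in FLAG Rosa, 2092 in PTBP2 Rosa and 4198 in PTBP2 WT, against 557 in FLAG WT 1 and 666 in FLAG WT 2. Per 1000 intervals of the library this was 27.1 in FLAG loxP (95% exact Clopper-Pearson interval 26.5 to 27.7), 32.4 in FLAG Rosa (31.8 to 33.0), 28.1 in PTBP2 Rosa (26.9 to 29.3) and 27.0 in PTBP2 WT (26.2 to 27.8). The background libraries held 6.31 (5.79 to 6.85) in FLAG WT 1 and 25.0 (23.1 to 26.9) in FLAG WT 2. Over filled chromosomes the shares were 58.9, 65.0, 41.5 and 55.8 in the 4 PTBP libraries in the same order, against 12.6 in FLAG WT 1 and 41.2 in FLAG WT 2. FLAG WT 1 thus lay far under the 4 PTBP libraries, and FLAG WT 2 lay under them by less. Over FLAG WT 2 the log2 ratio of shares was 0.11 (-0.006 to 0.23) for PTBP2 WT, an interval that includes no difference. It was 0.12 (0.003 to 0.23) for FLAG loxP, 0.17 (0.04 to 0.30) for PTBP2 Rosa and 0.38 (0.26 to 0.49) for FLAG Rosa. Over filled chromosomes PTBP2 Rosa lay closest to FLAG WT 2. No library held an interval on the opposite strand of either locus.

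Celf4 held less. It had 474 intervals in FLAG loxP, 580 in FLAG Rosa, 136 in PTBP2 Rosa and 181 in PTBP2 WT, against 71 in FLAG WT 1 and 2 in FLAG WT 2. Per 1000 intervals this was 1.78, 1.65, 1.83 and 1.16 in the 4 PTBP libraries in that order, against 0.804 in FLAG WT 1 and 0.0750 in FLAG WT 2. All 4 PTBP libraries lay above both background libraries. Celf2 held 15.2 intervals for each of Celf4 in FLAG loxP, 19.6 in FLAG Rosa, 15.4 in PTBP2 Rosa and 23.2 in PTBP2 WT. Both background libraries fell outside this range, with 7.85 in FLAG WT 1 and 333 in FLAG WT 2.

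**Figure D1:**
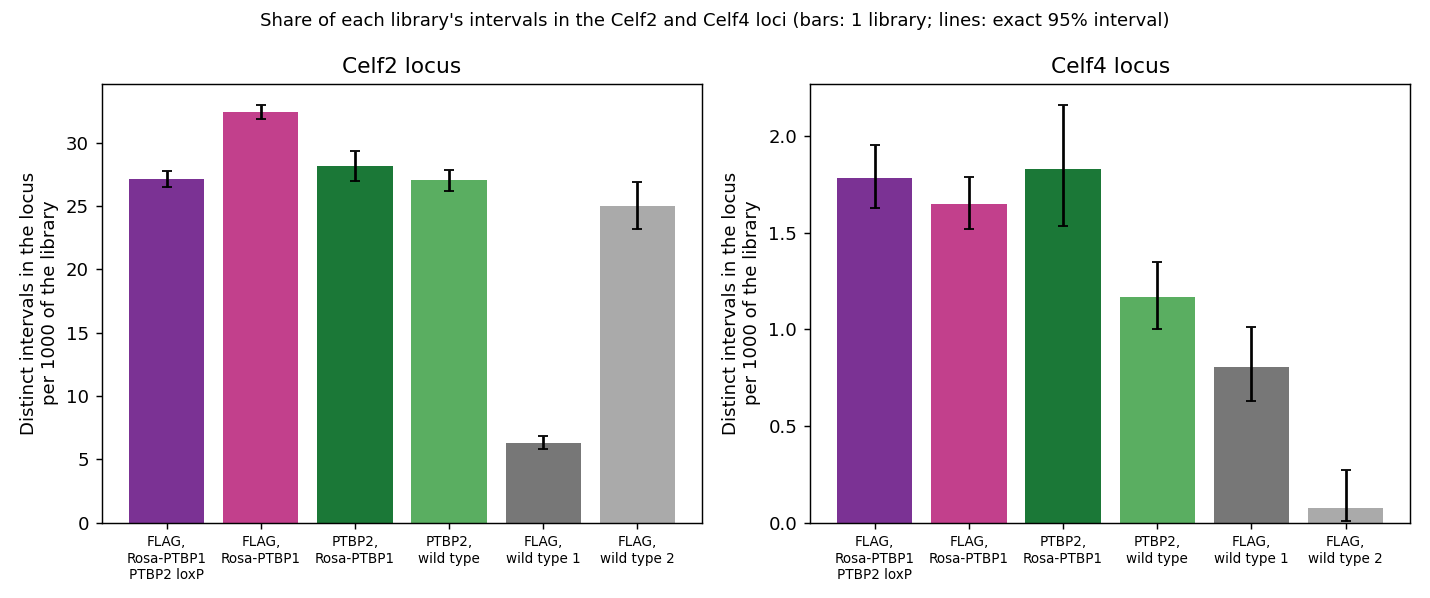
Share of each library's distinct intervals in the Celf2 (left) and Celf4 (right) loci, in intervals per 1000 of the library. Each bar is 1 library and each line its exact 95% interval. Celf2 stands between 27.0 and 32.4 in the 4 PTBP libraries and at 6.31 and 25.0 in the wild-type FLAG libraries, while Celf4 is highest in PTBP2 Rosa-PTBP1 (1.83) and lowest in FLAG wild type 2 (0.0750).

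The plot of shares shows that the pair of background libraries disagreed in opposite directions at the 2 loci. The share of Celf2 was 3.96-fold higher in FLAG WT 2 than in FLAG WT 1 (3.53 to 4.44), and that of Celf4 was 10.7-fold lower (2.86 to 90.2). Their means were 15.6 ± 13.2 per 1000 intervals for Celf2 and 0.439 ± 0.515 for Celf4 (SD, n = 2). The make-up of the libraries differed as well. FLAG WT 1 listed 4.49 lines for each Celf2 interval, and 272 of its 386 Celf2 sites were built from a single interval. A site here is a stretch of intervals that overlap or touch on 1 strand. FLAG WT 2 held 113 Celf2 sites, of which 66 had 5 or more intervals, against 3 such sites in FLAG WT 1.

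Within Celf2, intervals were concentrated in the window from 6.7 to 6.8 Mb, whose filling was known when the locus was chosen. It held 75.05% of the Celf2 intervals of FLAG loxP, 70.9% of FLAG Rosa, 86.9% of PTBP2 Rosa and 82.8% of PTBP2 WT, against 48.1% of FLAG WT 1 and 83.6% of FLAG WT 2. By distinct intervals it had rank 1 among all 100-kb windows in each of the 4 PTBP libraries, rank 2 in FLAG WT 1 and rank 3 in FLAG WT 2. The neighbouring window from 6.6 to 6.7 Mb, which lies downstream on the minus-strand RNA, had the largest ratio of FLAG-PTBP1 to PTBP2 among the Celf2 windows in both pairs of libraries. It held 11.9% of the Celf2 intervals in FLAG loxP and 13.3% in FLAG Rosa, against 3.92% in PTBP2 Rosa and 5.002% in PTBP2 WT, and 11.3% and 3.30% in FLAG WT 1 and 2. The log2 ratio of its share of the library was 1.97 for FLAG Rosa over PTBP2 Rosa and 1.25 for FLAG loxP over PTBP2 WT.

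The spread along the locus also differed. Of the 59 bins of 10 kb, 46 held an interval in FLAG loxP, 52 in FLAG Rosa, 39 in PTBP2 Rosa and 44 in PTBP2 WT, against 55 in FLAG WT 1 and 22 in FLAG WT 2. The 3 fullest bins of each library held 52.8% of the locus in FLAG loxP, 46.0% in FLAG Rosa, 59.6% in PTBP2 Rosa and 56.6% in PTBP2 WT. In FLAG WT 1 they held 23.2% and in FLAG WT 2 67.6%. FLAG WT 1 was thus thinly spread over almost the whole locus, and FLAG WT 2 was piled into few bins.

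**Figure D2:**
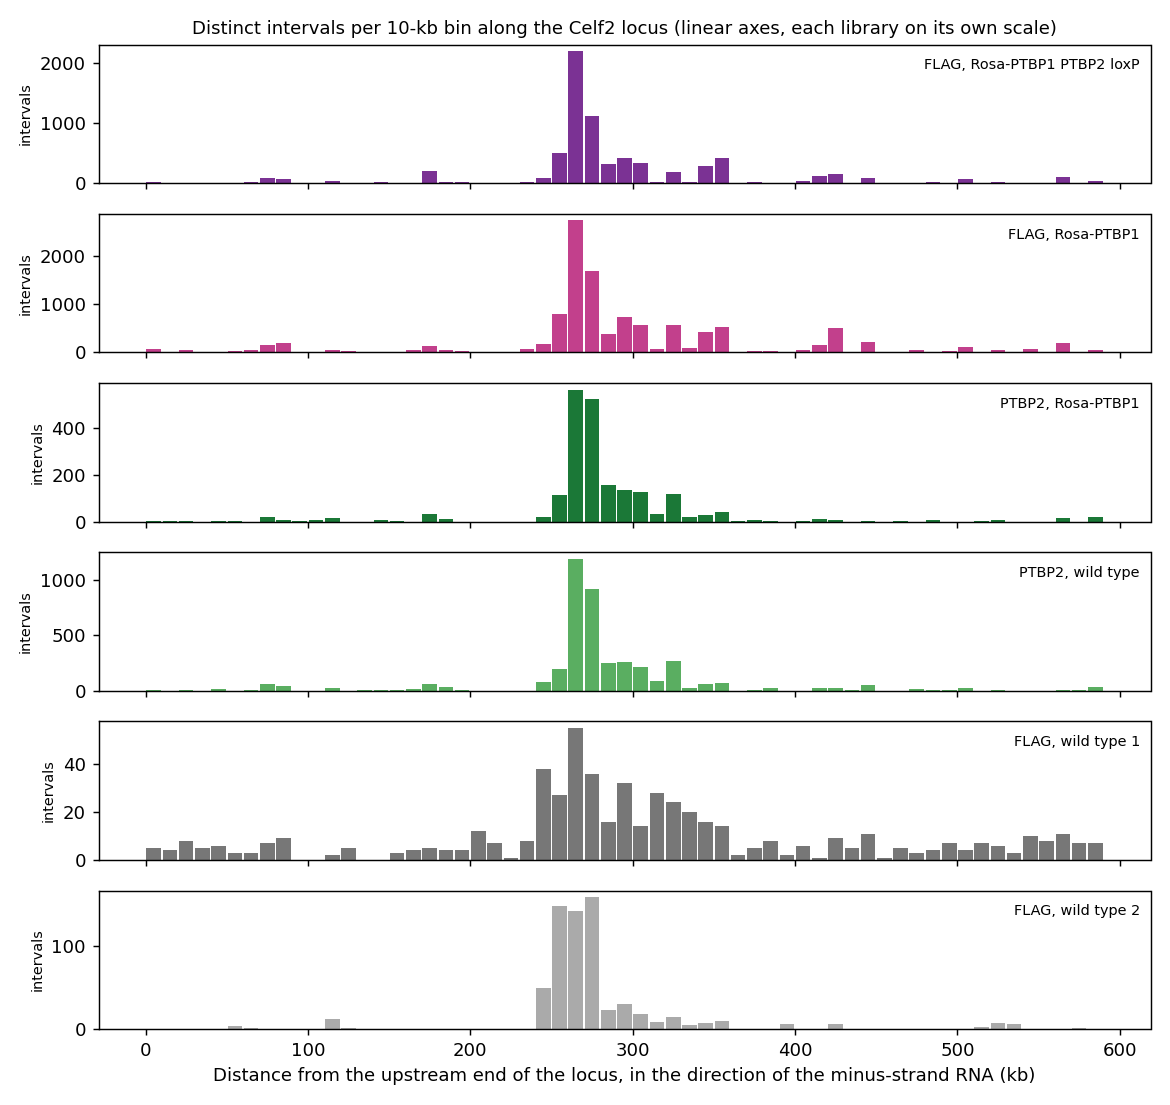
Distinct intervals per 10-kb bin along the Celf2 locus, plotted by distance from its upstream end in the direction of the minus-strand RNA (kb), with 1 panel per library and a linear axis of its own for each. The bin from 6.78 to 6.79 Mb is the fullest in every library except FLAG wild type 2, where the bin from 6.77 to 6.78 Mb is.

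The most heavily bound stretch of Celf2 consisted of 4 neighbouring sites within 9539 bases, from 6776882 to 6786420. Numbered along the RNA from its 5′ side, site 1 ran from 6784591 to 6786420, site 2 from 6782909 to 6784462, site 3 from 6779052 to 6782806 and site 4 from 6776882 to 6778578. The gaps between them were 128, 102 and 473 bases, and smaller sites lay in the gaps of 102 and 473 bases. Site 3, at 3755 bases, was the widest of all 168274 sites in the merged lists, where the median width was 46 bases. Together the 4 sites held 39.1% of the Celf2 intervals of FLAG loxP, 31.8% of FLAG Rosa, 45.9% of PTBP2 Rosa and 43.8% of PTBP2 WT, against 12.03% of FLAG WT 1 and 33.8% of FLAG WT 2.

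Site 1 held 627 intervals in FLAG loxP, 752 in FLAG Rosa, 116 in PTBP2 Rosa and 242 in PTBP2 WT, against 11 and 25 in FLAG WT 1 and 2. Site 2 held 587, 667, 129 and 293 in the 4 PTBP libraries in the same order, against 13 and 25. Site 3, with most intervals, held 1094, 1520, 437 and 851, against 27 and 82. Site 4 held 513, 679, 279 and 451, against 16 and 93. All 4 sites were thus listed in all 6 libraries, but their weights shifted along the RNA.

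FLAG-PTBP1 lay more to the 5′ side of this stretch and PTBP2 more to the 3′ side. Of the intervals in the 4 sites, site 1 held 22.2% in FLAG loxP and 20.8% in FLAG Rosa, against 12.1% in PTBP2 Rosa and 13.2% in PTBP2 WT. Site 4 held 18.2% in FLAG loxP and 18.8% in FLAG Rosa, against 29.0% in PTBP2 Rosa and 24.6% in PTBP2 WT. At each of the 4 sites, not only at the ends, the FLAG-PTBP1 libraries did not overlap the PTBP2 libraries. How often other sites of the lists separate in this way was not counted. In FLAG WT 1 sites 1 and 4 held 16.4% and 23.9%, and in FLAG WT 2 11.1% and 41.3%, so the background libraries also had more intervals at site 4 than at site 1.

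The ratios of library shares moved in step along the 4 sites in 2 pairs of libraries that have no library in common. For FLAG Rosa over PTBP2 Rosa the log2 ratio was 0.46 at site 1 (0.17 to 0.75), 0.13 at site 2 (-0.14 to 0.41), -0.44 at site 3 (-0.60 to -0.29) and -0.96 at site 4 (-1.16 to -0.75). For FLAG loxP over PTBP2 WT it was 0.60 (0.38 to 0.82), 0.23 (0.02 to 0.43), -0.41 (-0.54 to -0.28) and -0.59 (-0.77 to -0.40) in the same order. The ratio thus became lower along the RNA in both pairs and changed sign between sites 2 and 3. Over filled chromosomes the first pair gave 0.90, 0.57, 0.00 and -0.52, and the second 0.67, 0.30, -0.34 and -0.52, so the order along the RNA was the same but site 3 of the first pair then showed no difference. With deposited lines counted in place of distinct intervals, site 1 held 22.7% and 20.4% in FLAG loxP and FLAG Rosa, against 12.96% and 13.5% in PTBP2 Rosa and PTBP2 WT. Since these FLAG-PTBP1 and PTBP2 libraries shared no run, protein and run cannot be told apart in this order along the RNA. Each FLAG-PTBP1 library was also deeper than each PTBP2 library, and the part of depth in this order was not tested.

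**Figure D3:**
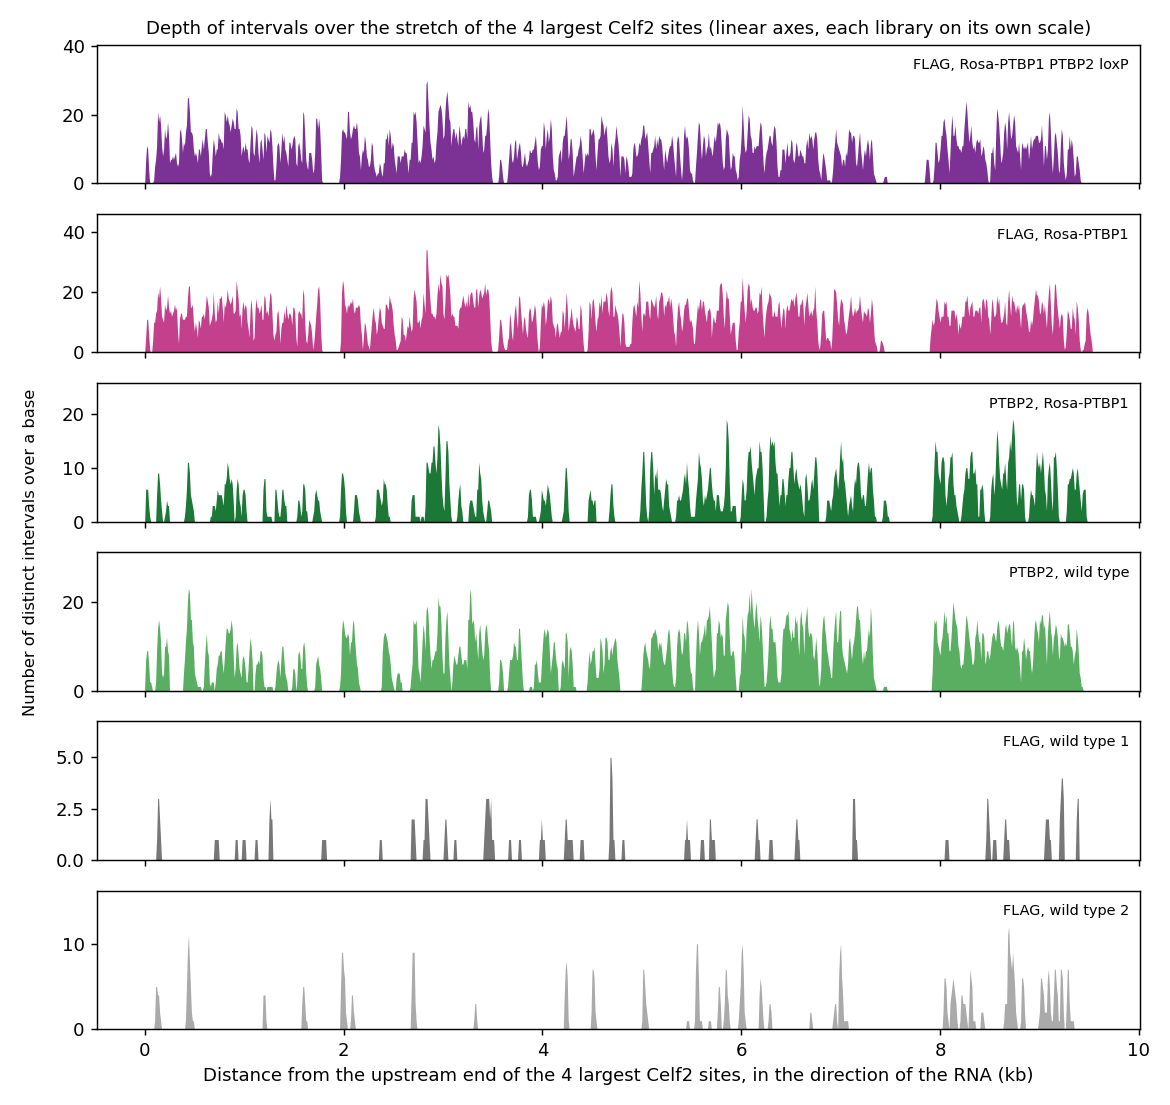
Number of distinct intervals over each base along the 4 largest Celf2 sites, by distance from their upstream end in the direction of the RNA (kb), with 1 panel per library and a linear axis of its own for each. The FLAG-PTBP1 libraries fill the first 5 kb more evenly than the PTBP2 libraries, which stand higher from 5 kb on. The gap of 473 bases between sites 3 and 4 is nearly empty, with depths of up to 4 in FLAG Rosa and PTBP2 Rosa from smaller sites inside it.

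Single positions inside these sites were also used by several libraries. The most used 5′ end of Celf2, at position 6783593 in site 2, began 10 intervals in FLAG loxP, 14 in FLAG Rosa, 4 in PTBP2 Rosa and 8 in PTBP2 WT, and 0 in both FLAG WT libraries. Position 6761000 began 5 intervals in FLAG loxP, 5 in FLAG Rosa, 4 in PTBP2 Rosa and 4 in PTBP2 WT, and again 0 in both FLAG WT libraries. That position lies in the site from 6760375 to 6761110, which stood apart from the background more clearly than the 4 large ones. It held 155 intervals in FLAG loxP, 193 in FLAG Rosa, 92 in PTBP2 Rosa and 142 in PTBP2 WT, against 2 and 1 in FLAG WT 1 and 2. Next to it, the site from 6759731 to 6760215 held 85, 116, 33 and 77 intervals in the 4 PTBP libraries, against 0 and 6.

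FLAG Rosa was set against FLAG WT to ask how much of the FLAG-PTBP1 signal exceeded the background. For the whole Celf2 locus the share was 5.14-fold higher in FLAG Rosa than in FLAG WT 1 and 1.30-fold higher than in FLAG WT 2, and the log2 ratio to their mean was 1.05. For Celf4 it was 2.05-fold higher than in FLAG WT 1 and 22.0-fold higher than in FLAG WT 2, with a log2 ratio to their mean of 1.91. FLAG Rosa thus lay above each background library at both loci, but the size of the difference rested on which background library was used. Counted by merged sites, the Celf2 log2 ratio to their mean was 0.40. Among Celf2 sites with 20 or more intervals in the libraries compared, 84 of 113 (74.3%) had a share at least 2-fold higher in FLAG Rosa and 10 were at least 2-fold lower. Over all sites of the lists the shares were 91.9% higher and 4.85% lower, which is a description and no test of Celf2 against other sites. Of the 84, 44 were listed at 0 in both FLAG WT libraries and passed the minimum through FLAG Rosa alone. Among the 38 sites with 50 or more intervals, the lowest was the site from 6792636 to 6793107, with 140 intervals in FLAG Rosa against 0 in FLAG WT 1 and 52 in FLAG WT 2 (log2 ratio -1.29). The site from 6804861 to 6805161 followed with 76 intervals in FLAG Rosa, against 3 and 24 in FLAG WT 1 and 2 (log2 ratio -1.11). In both, FLAG WT 2 alone placed the background above FLAG Rosa. The site from 6620286 to 6620678 held 100 intervals in FLAG Rosa and the site from 6639230 to 6639684 held 95, and both were listed at 0 in both FLAG WT libraries.

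FLAG loxP was compared with FLAG Rosa to ask whether FLAG-PTBP1 binding differs where PTBP2 can be deleted. The Celf2 share was slightly lower in FLAG loxP, with a log2 ratio of -0.26 (-0.30 to -0.22), and over filled chromosomes the ratio was -0.14. For Celf4 the log2 ratio was 0.11 (-0.07 to 0.29), an interval that includes no difference. Over filled chromosomes the Celf4 ratio was 0.23 (0.05 to 0.41), an interval that leaves out no difference, so the reading turned on the denominator. The 4 large Celf2 sites differed little, with log2 ratios of 0.14, 0.22, -0.07 and 0.00 along the RNA. Among 167 Celf2 sites with 20 or more intervals, 6 (3.59%) were at least 2-fold higher in FLAG loxP and 37 (22.2%) at least 2-fold lower, where 13.8% of all sites were higher and 15.9% lower.

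Some of those that were lower lay close together. The site from 6727881 to 6728182 held 2 intervals in FLAG loxP against 79 in FLAG Rosa, with a log2 ratio of -4.90 (-7.97 to -3.00). The site from 6727154 to 6727370 was listed at 0 in FLAG loxP and held 57 intervals in FLAG Rosa. PTBP2 Rosa and PTBP2 WT held 9 and 24 intervals at the site from 6727154 and 6 and 1 at the site from 6727881. The nearby site from 6728610 to 6728842 was also listed at 0 in FLAG loxP, with 18 intervals in FLAG Rosa, 29 in PTBP2 Rosa and 33 in PTBP2 WT. It lay under the minimum of 20 intervals for this comparison and was not among the sites counted. In the other direction the site from 6726470 to 6726694 held 35 intervals in FLAG loxP against 26 in FLAG Rosa (log2 ratio 0.83, 0.06 to 1.62), and the site from 6872826 to 6873333 held 102 against 84 (0.68, 0.25 to 1.12). How far replicate FLAG-PTBP1 libraries would differ at such sites is unknown, and a stretch missing from a list cannot be told apart from a loss of binding.

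PTBP2 Rosa was compared with PTBP2 WT to ask whether PTBP2 binding differs where FLAG-PTBP1 is also present. At Celf2 the log2 ratio of shares was 0.06 (-0.02 to 0.13), but its direction depended on what was counted. It was -0.43 (-0.50 to -0.35) over filled chromosomes, an interval that leaves out no difference. Within run XA041 it was -0.10 (-0.22 to 0.02) and within run XB028 0.35 (0.24 to 0.45). At Celf4 the log2 ratio was 0.65 (0.32 to 0.98), with 0.71 within XA041 and 0.64 within XB028. Over filled chromosomes it was 0.17 (-0.17 to 0.50), and the interval then included no difference. At neither locus did the interval leave out 0 in the same direction under both denominators.

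Of 53 Celf2 sites, 9 were at least 2-fold higher in PTBP2 Rosa and 6 at least 2-fold lower, where 17.8% of all sites were higher and 32.5% lower. Over filled chromosomes the counts were 4 higher and 12 lower, where 8.54% of all sites were higher and 26.5% lower. The site from 6728610 to 6728842 held 29 intervals in PTBP2 Rosa against 33 in PTBP2 WT, a log2 ratio of shares of 0.88 (0.10 to 1.64), or 0.39 (-0.38 to 1.16) over filled chromosomes. At site 4, PTBP2 Rosa held 279 against 451, a log2 ratio of 0.37 (0.15 to 0.59), which turned to -0.11 (-0.33 to 0.10) over filled chromosomes. Neither site thus kept an interval above 0.

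The proteins were set against each other in the Rosa-PTBP1 cortex, which can hold both, and between FLAG loxP and PTBP2 WT. For Celf2 the log2 ratio was 0.21 for FLAG Rosa over PTBP2 Rosa, or 0.65 over filled chromosomes, and 0.00 (-0.05 to 0.06) for FLAG loxP over PTBP2 WT. For Celf4 it was -0.15, or 0.29 over filled chromosomes, in the first pair and 0.61 (0.36 to 0.87) in the second. From distinct intervals no whole-locus ratio between the proteins thus reached 2-fold; counted by merged sites, Celf4 in the second pair did, at 1.18.

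For FLAG Rosa over PTBP2 Rosa, 58 of 122 Celf2 sites (47.5%) were at least 2-fold higher and 15 (12.3%) at least 2-fold lower, where 60.8% of all sites were higher and 18.7% lower. Over filled chromosomes 68 (55.7%) were higher and 7 (5.74%) lower, where 52.2% of all sites were higher and 16.8% lower. For FLAG loxP over PTBP2 WT, 27 of 97 (27.8%) were higher and 14 (14.4%) lower, where 26.8% of all sites were higher and 19.3% lower. In the first pair the share of higher sites thus lay under that of all sites, but slightly above it over filled chromosomes. In the second pair it lay near that of all sites. Of the 122 sites, 41 were listed at 0 in PTBP2 Rosa and passed the minimum through FLAG Rosa alone. Of the 97, 11 were listed at 0 in PTBP2 WT. Nothing is read from these counts about Celf2.

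Some Celf2 sites held few or no PTBP2 intervals. The site from 6704240 to 6705086 held 153 intervals in FLAG loxP and 200 in FLAG Rosa, against 5 in PTBP2 Rosa and 8 in PTBP2 WT, with 2 and 0 in FLAG WT 1 and 2. Its log2 ratio was 3.08 (1.84 to 4.72) for FLAG Rosa over PTBP2 Rosa and 3.48 (2.47 to 4.72) for FLAG loxP over PTBP2 WT. The site from 6693860 to 6694088 held 55 and 62 intervals in FLAG loxP and FLAG Rosa, against 8 and 1 in PTBP2 Rosa and PTBP2 WT, and was listed at 0 in both FLAG WT libraries. There the log2 ratio was 5.01 (2.47 to 10.34) for FLAG loxP over PTBP2 WT and 0.71 (-0.35 to 1.99), or 1.15 (0.09 to 2.43) over filled chromosomes, for FLAG Rosa over PTBP2 Rosa. The site from 6747849 to 6748107 held 26 and 97 intervals in FLAG loxP and FLAG Rosa and was listed at 0 in both PTBP2 libraries. All 3 lie downstream of the 4 large sites on the RNA, and the first pair of them near the border of the 6.6 to 6.7 Mb window.

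Other sites had larger shares in the PTBP2 libraries. The site from 6728610 to 6728842, given above, had a log2 ratio of -2.93 (-3.86 to -2.03) for FLAG Rosa over PTBP2 Rosa, or -2.49 over filled chromosomes, and was listed at 0 in FLAG loxP. The site from 6760375 to 6761110, given above, had log2 ratios of -1.17 (-1.54 to -0.80) for FLAG Rosa over PTBP2 Rosa and -0.65 (-0.99 to -0.31) for FLAG loxP over PTBP2 WT, or -0.73 and -0.58 over filled chromosomes. The site from 6757070 to 6757350 held 40 intervals in FLAG loxP and 82 in FLAG Rosa, against 19 in PTBP2 Rosa and 46 in PTBP2 WT. There the log2 ratio was -0.13 (-0.86 to 0.67) for FLAG Rosa over PTBP2 Rosa and -0.98 (-1.63 to -0.33) for FLAG loxP over PTBP2 WT, and over filled chromosomes 0.31 and -0.90, so the direction in the Rosa-PTBP1 pair turned with the denominator. The site from 6790319 to 6790580 had opposite signs in the 2 pairs, at -1.12 (-1.96 to -0.23) and 2.16 (0.44 to 4.54), or -0.68 (-1.52 to 0.21) and 2.24 (0.51 to 4.62) over filled chromosomes, on 23 intervals in FLAG loxP, 39 in FLAG Rosa, 18 in PTBP2 Rosa and 3 in PTBP2 WT.

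Over filled chromosomes, 77 Celf2 sites had 20 or more intervals in each pair. Of these, 16 (20.8%) were at least 2-fold higher for FLAG-PTBP1 in both pairs and 2 (2.60%) at least 2-fold lower in both, where 21.9% and 7.75% of 1161 such sites of all the lists were. On all chromosomes 12 (15.6%) were higher and 4 (5.19%) lower in both, where 22.3% and 8.57% of 2358 such sites of all the lists were. Opposite calls over filled chromosomes were made at 3 Celf2 sites, all lower in FLAG loxP over PTBP2 WT and higher in FLAG Rosa over PTBP2 Rosa. Of the 1161 sites of all the lists, 34 had this call and 10 the reverse one. Across the 56 of the 77 Celf2 sites listed in all 4 libraries, Pearson's r between the log2 ratios was 0.43 and Spearman's rho 0.48. This is a description over sites that share a locus and libraries. The signs matched at 41 of them (73.2%), where 68.6% matched among such sites of all the lists.

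**Figure D4:**
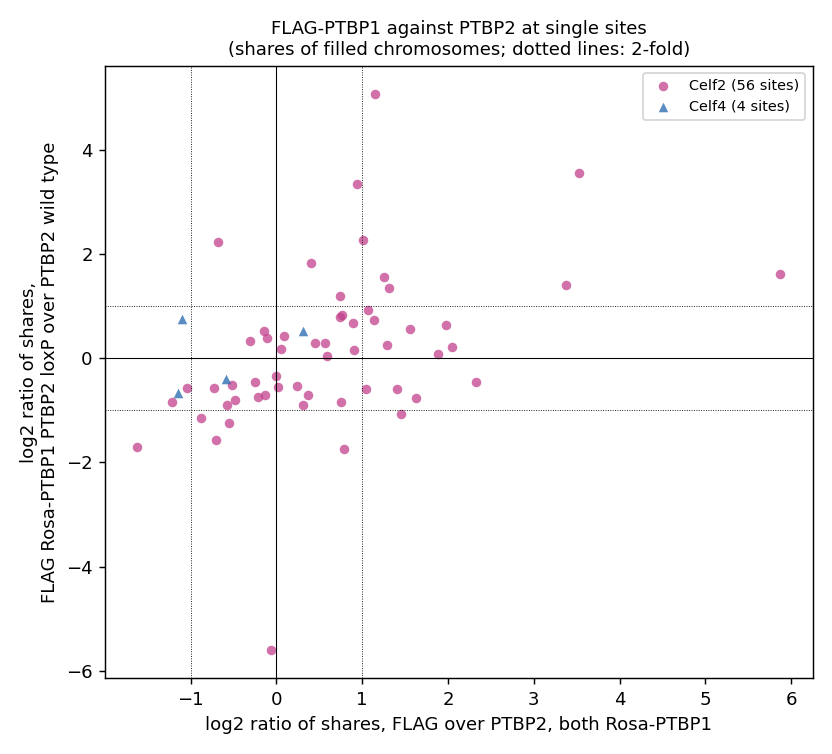
Log2 ratio of shares of FLAG-PTBP1 over PTBP2 at single sites over filled chromosomes, in the Rosa-PTBP1 pair (horizontal) and in the FLAG loxP and PTBP2 wild-type pair (vertical). Each point is 1 site listed in all 4 libraries (56 in Celf2, 4 in Celf4), the dotted lines mark 2-fold, and Celf2 points run from lower left to upper right with wide scatter (Pearson's r 0.43).

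Sharing among libraries was counted over sites, as a description. Of 197 Celf2 sites with 20 or more intervals in the 4 PTBP libraries together, 75 (38.1%) were listed in all 4, where 24.7% of all such sites were. FLAG-PTBP1 alone of the proteins held 40 (20.3%, where 22.7% of all such sites were) and PTBP2 alone held 0, where 0.461% of all such sites were held by PTBP2 alone. No FLAG WT library held 108 (54.8%), where 81.6% of all such sites were listed in neither. Listed in all 6 libraries were 17 (8.63%), where 0.936% of all such sites were. Of the intervals of FLAG WT 2 in Celf2, 89.8% overlapped a FLAG Rosa site, and of those of FLAG WT 1 40.04%, against 33.5% and 5.21% over the whole lists. FLAG WT 2 came from the same run as FLAG Rosa, and the part of the run in this overlap was not tested.

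Celf4, the shorter locus at 290 kb against 590 kb, held fewer and narrower sites. Merged over all 6 libraries it held 151 sites, the widest of 496 bases, against 854 in Celf2. These counts include sites listed in the background only. Taken alone, FLAG WT 1 had 60 sites in Celf4 and 386 in Celf2. The 3 fullest bins of 10 kb held 90.5% of its intervals in FLAG loxP, 79.7% in FLAG Rosa, 86.0% in PTBP2 Rosa and 76.8% in PTBP2 WT. In PTBP2 WT 6 of the 29 bins held any interval, while FLAG WT 1 was spread over 27 of them with 71 intervals, and the 2 intervals of FLAG WT 2 lay in 1. The bin from 25.77 to 25.78 Mb was the fullest in both PTBP2 libraries, with 42.6% of the locus in PTBP2 Rosa and 35.9% in PTBP2 WT, against 22.4% in FLAG loxP and 23.4% in FLAG Rosa. The bin from 25.83 to 25.84 Mb ran the other way, with 32.9% in FLAG loxP and 35.9% in FLAG Rosa, against 19.1% in PTBP2 Rosa and 17.7% in PTBP2 WT. The bin from 25.90 to 25.91 Mb, nearest the 5′ side, showed no such split, with 35.2% in FLAG loxP and 20.3% in FLAG Rosa, against 24.3% in PTBP2 Rosa and 23.2% in PTBP2 WT.

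**Figure D5:**
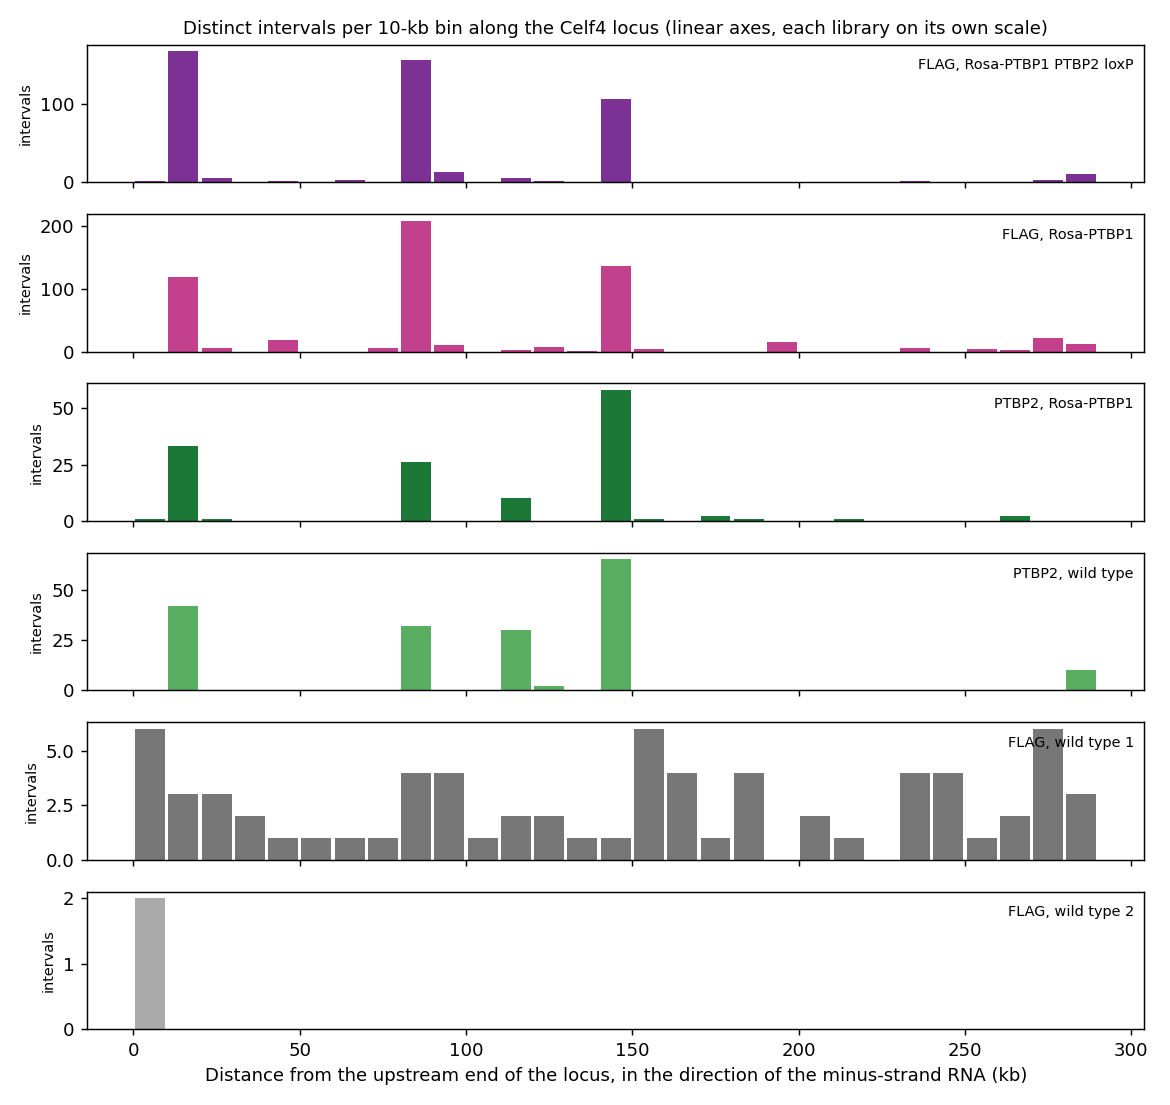
Distinct intervals per 10-kb bin along the Celf4 locus, plotted by distance from its upstream end in the direction of the minus-strand RNA (kb), with 1 panel per library and a linear axis of its own for each. The 4 PTBP libraries stand in the bins from 25.90, 25.83 and 25.77 Mb, FLAG wild type 1 is spread over 27 of 29 bins, and FLAG wild type 2 holds 2 intervals in 1 bin.

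The strongest Celf4 sites were not listed in the background libraries. By mean share the first, from 25771814 to 25772042, held 49 intervals in FLAG loxP, 58 in FLAG Rosa, 37 in PTBP2 Rosa and 48 in PTBP2 WT. Its point of greatest depth lay at 25771998 in FLAG loxP, 25771996 in FLAG Rosa, 25771999 in PTBP2 Rosa and 25772000 in PTBP2 WT, a spread of 4 bases. The peaks spread over 27 bases at the Celf4 site from 25834566, and over 131 to 965 bases at the 6 Celf2 sites with the highest mean share. Those Celf2 sites were 485 to 3755 bases wide, against 229 and 496 bases at the Celf4 sites from 25771814 and 25834566. The part of width in the spread was not tested. At the Celf4 site from 25833236 the peaks of the 2 FLAG-PTBP1 libraries lay 82 bases apart. The site from 25771814 held 10.3% of the Celf4 intervals of FLAG loxP and 10% of FLAG Rosa, against 27.2% of PTBP2 Rosa and 26.5% of PTBP2 WT. The next, from 25834566 to 25835061, held 56, 99, 23 and 24 intervals in the same order. Below it stood the site from 25776649 to 25776839, with 33, 34, 21 and 12, and the site from 25905236 to 25905405, with 27, 37, 16 and 22. All of these were listed at 0 in both FLAG WT libraries, as were all 12 Celf4 sites with 20 or more intervals in the 4 PTBP libraries together, where 81.6% of all such sites in the lists were.

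Some Celf4 sites were listed for 1 protein only or nearly so. The site from 25833236 to 25833472 held 40 intervals in FLAG loxP and 43 in FLAG Rosa and was listed at 0 in both PTBP2 libraries. The site from 25904836 to 25905054 held 29 and 30 in FLAG loxP and FLAG Rosa, against 4 in PTBP2 Rosa and 0 in PTBP2 WT. The reverse was seen from 25805285 to 25805536, with 1 interval in FLAG loxP and 0 in FLAG Rosa, against 7 in PTBP2 Rosa and 27 in PTBP2 WT. For FLAG loxP over PTBP2 WT its log2 ratio was -5.53 (-10.89 to -2.93). Of the first site, from 25771814, the share was lower for FLAG-PTBP1 in both pairs, with log2 ratios of -1.59 (-2.21 to -0.96) for FLAG Rosa over PTBP2 Rosa and -0.75 (-1.35 to -0.14) for FLAG loxP over PTBP2 WT, or -1.15 and -0.67 over filled chromosomes.

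Counts of Celf4 sites past 2-fold were small. In FLAG Rosa over FLAG WT 7 of 7 were higher. All 7 were listed at 0 in both FLAG WT libraries and passed the minimum through FLAG Rosa alone, which fixed their call. For FLAG loxP over FLAG Rosa 2 of 10 were higher and 1 lower. For FLAG loxP over PTBP2 WT 3 of 9 were higher, all listed at 0 in PTBP2 WT, and 1 was lower. In PTBP2 Rosa over PTBP2 WT 2 of 5 were higher and 0 lower. In FLAG Rosa over PTBP2 Rosa 2 of 7 were higher, both listed at 0 in PTBP2 Rosa, and 3 were lower. Over filled chromosomes the PTBP2 Rosa comparisons gave 1 higher and 1 lower of 5, and 3 higher and 2 lower of 7, so neither balance held. The percentages of all sites given for Celf2 apply here too, and nothing is read from counts this small.

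Intervals of 1 library were also counted by whether they lay in a site of another. Of FLAG loxP intervals in Celf2, 92.2% lay in a FLAG Rosa site and 71.1% in a PTBP2 WT site, against 67.1% and 48.8% over the whole lists. Of PTBP2 Rosa intervals in Celf2, 82.7% lay in a PTBP2 WT site and 87.9% in a FLAG Rosa site, against 51.9% and 48.8%. In Celf4 these shares were 77.0% and 44.3% for FLAG loxP and 80.1% and 82.4% for PTBP2 Rosa. The higher overlap in Celf2 stands beside sites with a median width of 58 bases, against 46 in all lists, and the part of site width in the overlap was not tested.

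The 100-kb windows whose shares were most like Celf2 over the 6 libraries were 36.4 to 36.5 Mb on chromosome 11 (Pearson's r 0.98), 56.5 to 56.6 Mb on chromosome 17 (0.95) and 80.4 to 80.5 Mb on chromosome 3 (0.91), of 334 compared. Most like Celf4, of 340 compared and with r of 0.99 or more, were 83.7 to 83.8 Mb on chromosome 13, 77.6 to 77.7 Mb on chromosome 16 and 7 to 7.1 Mb on chromosome 2. The last of these begins inside the Celf2 locus and runs past its upper end. There FLAG WT 1 and 2 held 52 and 1 intervals, an order opposite to that of the whole Celf2 locus.

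At the borders of the loci, the 10 kb below the Celf2 start held 0 intervals in every library, and the first 10 kb inside held 45 in FLAG loxP, 44 in FLAG Rosa, 19 in PTBP2 Rosa and 32 in PTBP2 WT. At the upper end the last 10 kb inside held 25 in FLAG loxP, 64 in FLAG Rosa, 4 in PTBP2 Rosa and 8 in PTBP2 WT. The 10 kb outside held 41, 67, 2 and 9 in the same order, so the intervals went on past this border. Celf4 had 0 intervals in the 10 kb outside either border in every library.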

How the data were processed

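Per the labels' protocols, cortices were irradiated at 400 mJ/cm2, nuclear fractions were immunoprecipitated, and RNA was recovered from membrane between 80 and 110 kDa. Reads were aligned with Bowtie to mm9, per the submitters' processing notes. Per the file headers, each deposited list gives read intervals from clusters significant at some false discovery rate. The cluster caller was not given in the sources used here, nor was that rate. A region listed at 0 may therefore have held reads. Per the file headers, FLAG WT 1 and both PTBP2 libraries are combined data. The lists carry no score, count or gene name. The values deposited by the authors and used here are interval starts and ends.

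Lines were collapsed to distinct intervals, and those that overlapped or touched on 1 strand were merged into sites. Sites compared between libraries came from merging all 6. Shares have exact Clopper-Pearson 95% intervals, and log2 ratios of shares, without a pseudocount, have exact conditional binomial ones. The FLAG WT value is the mean of its 2 shares. Sites were counted as higher or lower from 2-fold, among those with 20 or more intervals in the libraries compared, with sites listed at 0 on 1 side included. A chromosome was sparse in a library when its share was below 0.5 times the median share of the others. Named sites were, per locus, the 6 with the highest mean share over the 4 PTBP libraries and, per comparison, the 2 highest and 2 lowest ratios among sites with 50 or more intervals, with the 6 most used 5′ ends and the 3 most similar windows. The members, lists and rules were chosen with earlier results of these data known. Filled-chromosome site counts and site ratios and the split over the 4 large sites were added after the data were seen. The labels do not say whether libraries came from separate animals. Python 3.11.15, pandas 2.3.3, NumPy 2.4.6, SciPy 1.17.1 and matplotlib 3.10.9 were used, and the code was tested on simulated data. Site sequences, gene parts and related genes need an mm9 genome and were not analysed here.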

Additional observations from a re-analysis of the deposited data

Results flagged for a closer look

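Intervals of the Celf2 strand outside the locus exceeded the background libraries. In the 350 kb above it, from 7.05 to 7.4 Mb of chromosome 2, there were 3.34 intervals per 1000 of the library in FLAG loxP, 4.16 in FLAG Rosa, 2.57 in PTBP2 Rosa and 3.26 in PTBP2 WT, against 1.66 in FLAG WT 1 and 0.525 in FLAG WT 2. The 350 kb above Celf4 held 0 intervals in every library.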

How the results depend on the processing

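Of 64 alternative values, 40 stayed within the tolerance used and 24 moved out of it. The tolerance was the counting interval for a ratio of 1 library to 1, 1 SD of the ratios to each library for FLAG WT, 1 SD over library pairs for overlaps and 1.5 times for counts. No ratio of 2-fold or more changed direction. FLAG Rosa over FLAG WT at Celf2 did fall under 2-fold, with a log2 ratio of 0.40 from merged sites. Within WA047, and likewise without FLAG WT 1, it was 0.38. Of the smaller ratios, FLAG loxP over PTBP2 WT and PTBP2 Rosa over PTBP2 WT changed direction at Celf2. At Celf4, FLAG Rosa over PTBP2 Rosa did. From merged sites, the Celf2 log2 ratios were -0.073 for FLAG loxP over FLAG Rosa, -0.081 for FLAG loxP over PTBP2 WT and -0.23 for PTBP2 Rosa over PTBP2 WT, and those of Celf4 1.18 for FLAG loxP over PTBP2 WT and 0.59 for FLAG Rosa over PTBP2 Rosa. From deposited lines, Celf2 gave 0.063 for FLAG loxP over PTBP2 WT, -0.14 for PTBP2 Rosa over PTBP2 WT and 0.48 for FLAG Rosa over PTBP2 Rosa. Over filled chromosomes, Celf2 gave -0.14 for FLAG loxP over FLAG Rosa, 0.077 for FLAG loxP over PTBP2 WT, -0.43 for PTBP2 Rosa over PTBP2 WT and 0.65 for FLAG Rosa over PTBP2 Rosa, and Celf4 gave 0.17 and 0.29 for the last 2 of these. Without the largest site, Celf2 gave 0.094 for FLAG loxP over PTBP2 WT and 0.34 for FLAG Rosa over PTBP2 Rosa. For Celf2, PTBP2 Rosa over PTBP2 WT was -0.10 within XA041 and 0.35 within XB028. The cause of these moves was not tested.

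For FLAG Rosa over FLAG WT, leaving out each wild-type library gave 0.38 to 2.36 for Celf2 and 1.04 to 4.46 for Celf4. Within WA047 the values were 0.38 for Celf2 and 4.46 for Celf4, the latter from 2 wild-type intervals. Sites numbered 854 in Celf2, with 444 of 5 or more and 302 of 10 or more intervals, and 151 in Celf4, with 48 and 29. No paired analysis was possible because replicate numbers are given in the labels of FLAG WT only. FLAG WT 2, with 26665 intervals, and PTBP2 Rosa limit what is detectable at small sites.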
